A study of Mus musculus with 2 samples.

Results

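The genes described here are 10 that carry calcium signals in the cell or make and break down active vitamin D. They are the calcium receptor gene Casr, the phospholipase genes Plcg1 and Plcd1, the vitamin D hydroxylase genes Cyp27b1 and Cyp24a1, the calcium entry genes Trpv6, Orai1 and Stim1, the calcium pump gene Atp2a2 and the calmodulin-like gene Calml3. Members were every probe set of the array whose single annotated gene symbol was one of these 10 names. All 10 had at least 1, and together they had 22 of the 34945 probe sets with a single symbol, for 10 of 18193 genes. The array reads each transcript through sets of short probes near its 3′ end, and each such probe set yields a single signal.

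The study set primary keratinocytes, the main cells of the epidermis, from MED1epi-/- mice against those of control littermates. The first group carried the transgene K5Cre, in which the promoter of keratin 5, a gene of basal epidermal cells, drives Cre recombinase, together with MED1flox/flox alleles, and its label reads keratinocyte-specific MED1 null. Control cells are titled MED1flox/flox and described as wild-type in their source label, and by the title they carried the floxed alleles without the Cre. Both cultures came from newborn mice of strain C57BL/6, were grown on collagen in the same conditioned medium (CnT07) and were untreated otherwise. The labels do not say how many animals went into each culture. Each group had 1 Affymetrix array, which allows no test and no spread between cultures, and precision is limited by that number of arrays. In cultured cells measured in bulk, fewer cells of a type and less RNA per cell cannot be told apart.

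Keratinocytes stop dividing and begin to cornify when calcium around them is raised. Calcium acts on the calcium-sensing receptor, which through G proteins activates phospholipase C. The phospholipase splits a membrane lipid into diacylglycerol and inositol trisphosphate, and inositol trisphosphate releases calcium from the endoplasmic reticulum. STIM1 senses the emptied store and opens the ORAI1 channel in the plasma membrane, while the pump encoded by Atp2a2 refills the store. The epidermis also makes its own active vitamin D, calcitriol, through CYP27B1, and CYP24A1 breaks it down. Calcitriol acts through the vitamin D receptor, for which MED1 is a known coactivator, and Cyp24a1 and Trpv6 are classical targets of that receptor.

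Of the 7 members whose start-site region was in the RefSeq tables used, 4 regions are shown to set 2 genes that gave a clear signal, Orai1 and Stim1, beside 2 that did not, Cyp27b1 and Trpv6. Each is 300 bases long, from 250 before the annotated start to 50 after it, in assembly GRCm38.p6 of RefSeq, written 5′ to 3′ on the gene's own strand. CpG dinucleotides, the sites of DNA methylation in mammals, are in capitals. Orai1 lies at chr5:123014824-123015123 on the plus strand, Stim1 at chr7:102267569-102267868 on the plus strand, Cyp27b1 at chr10:127047996-127048295 on the plus strand and Trpv6 at chr6:41636356-41636655 on the minus strand.
Orai1: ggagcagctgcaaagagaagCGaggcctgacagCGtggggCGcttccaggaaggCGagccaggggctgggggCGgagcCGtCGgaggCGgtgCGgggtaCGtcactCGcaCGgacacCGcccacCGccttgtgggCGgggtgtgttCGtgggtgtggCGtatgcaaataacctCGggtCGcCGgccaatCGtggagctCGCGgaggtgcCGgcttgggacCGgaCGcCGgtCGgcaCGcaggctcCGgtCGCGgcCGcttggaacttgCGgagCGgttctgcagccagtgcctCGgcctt
Stim1: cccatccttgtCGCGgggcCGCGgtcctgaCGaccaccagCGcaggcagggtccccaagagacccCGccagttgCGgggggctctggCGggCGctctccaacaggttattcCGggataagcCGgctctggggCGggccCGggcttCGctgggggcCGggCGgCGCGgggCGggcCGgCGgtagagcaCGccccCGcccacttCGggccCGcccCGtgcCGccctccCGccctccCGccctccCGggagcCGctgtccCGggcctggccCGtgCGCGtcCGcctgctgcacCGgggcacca
Cyp27b1: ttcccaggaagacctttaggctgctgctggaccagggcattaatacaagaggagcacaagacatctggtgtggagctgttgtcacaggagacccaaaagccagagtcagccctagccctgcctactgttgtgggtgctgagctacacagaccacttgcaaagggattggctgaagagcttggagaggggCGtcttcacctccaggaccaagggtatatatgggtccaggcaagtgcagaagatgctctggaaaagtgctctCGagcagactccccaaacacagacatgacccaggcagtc
Trpv6: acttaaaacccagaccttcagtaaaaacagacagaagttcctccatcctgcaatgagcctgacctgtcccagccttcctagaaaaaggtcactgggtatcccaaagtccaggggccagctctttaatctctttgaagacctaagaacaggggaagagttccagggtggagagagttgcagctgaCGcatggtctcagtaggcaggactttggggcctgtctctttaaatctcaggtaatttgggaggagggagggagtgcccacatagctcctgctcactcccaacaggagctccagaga

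The Orai1 region holds 36 CpG dinucleotides and the Stim1 region 38, against 2 in that of Cyp27b1 and 1 in that of Trpv6. Among the other members, the region of Plcg1 holds 27, those at the 2 annotated starts of Plcd1 11 and 22, and that of Casr 4. A region was called CpG-rich at a GC content of at least 50% and a ratio of observed to expected CpG of at least 0.6, which 33.5% of all 32851 regions reached. Orai1, Stim1 and Plcg1 were CpG-rich, with a ratio of 0.82 for Stim1, 0.70 for Plcg1 and a higher one for Orai1. Casr, Plcd1, Cyp27b1 and Trpv6 were not, and the second Plcd1 region came close at 0.58. Over all genes with a region, 83.2% of 8229 with a CpG-rich region gave a signal above the floor defined below, against 41.9% of 6139 others. The regions were also searched on both strands for the half-site AGGTCA, of which the vitamin D receptor and its partner RXR bind pairs in the same orientation spaced by 3 bases. No exact pair (0) was found in the 8 regions of these members, and 2 of all 32851 regions hold one. With exact pairs this rare, the 0 says nothing about whether the receptor binds at these genes. Looser forms of the site were not searched. Cyp24a1, Atp2a2 and Calml3 had no start-site region to search. The Trpv6 region holds 2 single half-sites, the other members' regions hold 0, and 16.3% of all regions have at least 1.

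**Figure D1:**
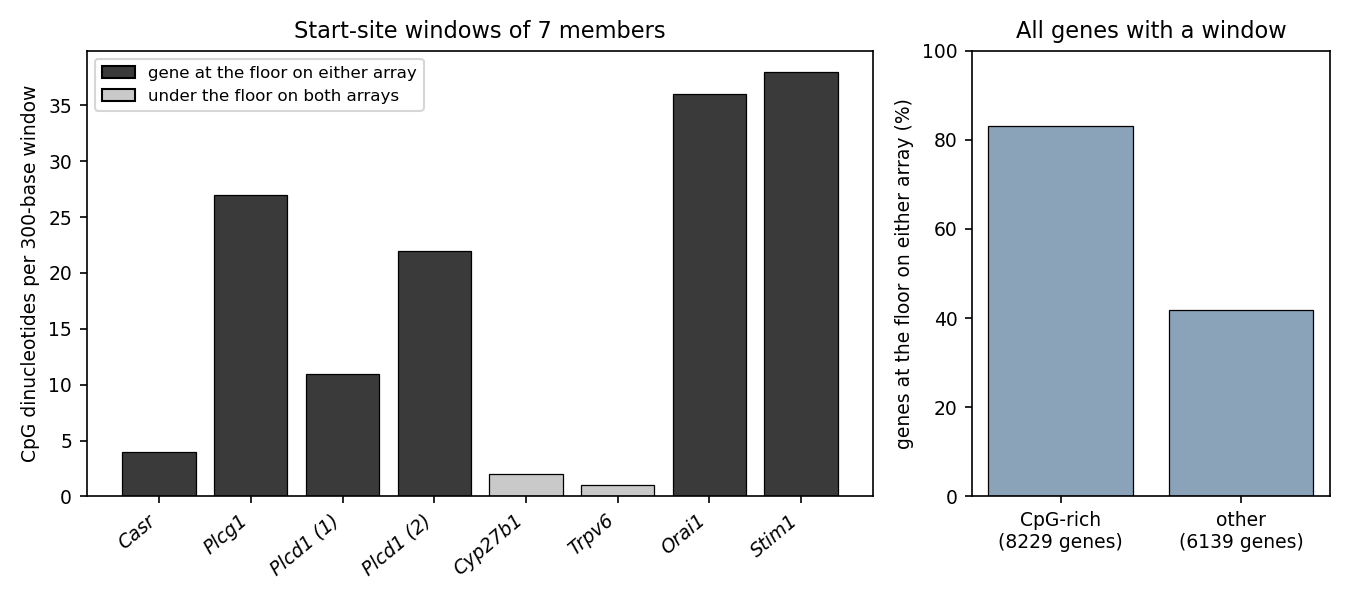
Left, number of CpG dinucleotides in the 300-base window around each annotated start of 7 members, with dark bars for genes whose signal reached the floor on either array and light bars for genes under it on both. Right, percent of all genes at the floor on either array, by class of window. Cyp27b1 and Trpv6, the light bars, have 2 and 1 CpG dinucleotides.

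Values are MAS5 signals, on a linear scale with no unit, that had been scaled to the same trimmed mean of 500.0 on both arrays. MAS5 subtracts the signal of mismatched probes, and low values are noisy. Signals under 67.7, the median of all probe sets other than controls over both arrays, were therefore raised to this floor before ratios were taken. Genes that stayed under it on both arrays are called not measured. A gene's value is that of its probe set with the highest mean signal, and signals of different probe sets were not set against each other. Med1, the targeted gene, read 1039 on the array labelled MED1-null and 462.7 on the control array, and each of its 7 probe sets gave more signal on the array labelled MED1-null, which goes against the label. The deleted part of the gene is not given in the labels, so these probe sets check nothing about the deletion. Whether the labels of the 2 arrays were exchanged was not tested. Exchanged labels would turn every direction given below, that of Calml3 included, so the array is called by its label throughout. The arrays also differed in sex-linked RNA. Xist, expressed from the inactive X of female cells, read 55.7 on the array labelled MED1-null and 5461 on the control array, and the Y-linked Eif2s3y read 2164 and 4.2. Sex and genotype label cannot be told apart in any value below.

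Markers of keratinocytes were high on both arrays. All 9 were measured, among them the basal keratins Krt5 (32220 on the array labelled MED1-null and 26821 on the control array) and Krt14 (36849 and 32905). Markers of other cells were present too, and those of fibroblasts and melanocytes differed between the arrays. Signals of 9 fibroblast markers, those under the floor included, summed to 1483 on the array labelled MED1-null and 3443 on the control array. Of the 7 measured 6 were lower, and Col1a1 and Lum stayed under the floor on both. Col1a2 went the other way, at 115.3 and 80.3. For 4 of the 6 lower ones, Col3a1, Dcn, Twist2 and Thy1, only the control signal reached the floor, so their ratios are bounds. Sparc alone read 1033.6 and 2709.1, and the other 8 markers summed to 449.4 and 733.6. Those of 8 melanocyte markers, all measured, summed to 19507 and 25056, with 6 of 8 lower. Kit was the only melanocyte marker past 2-fold, at 136.8 on the array labelled MED1-null and 409.5 on the control array. Of 6 leukocyte markers 3 were measured, Cd68 at 2798.9 on the array labelled MED1-null and 2446 on the control array, Csf1r at 228.9 and 164.0 and Cd74 at 58.9 and 71.9, while Ptprc, Cd3e and Cd207 were under the floor on both. Of 4 endothelial markers Kdr was measured, at 51.6 and 80.5, and Cdh5, Pecam1 and Tek were not. The Merkel cell gene Atoh1 read 80.1 and 52.9, and the Merkel cell keratin Krt20 was under the floor on both. No marker of these lists read exactly 0. The part of these differences in the results below was not tested.

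Of the 10 members 7 were measured, and Calml3 was the only one of them at least 2-fold apart between the arrays. The array labelled MED1-null had the higher Calml3 signal, and 1.63% of all 11621 measured genes passed 2-fold in that direction; 2.23% passed it in the other. None of the 7 was at least 2-fold lower. The 6 others, Stim1, Casr, Plcd1, Orai1, Plcg1 and Atp2a2, lay within 2-fold, with log2 ratios from -0.04 to 0.66. The median log2 ratio of the 7 was 0.22, and 6 lay above 0, beside a median of 0.06 and 57.1% above 0 over all measured genes. Cyp27b1, Cyp24a1 and Trpv6 stayed under the floor on both arrays. Closest to the floor were Casr just above it, with 79.6 on the array labelled MED1-null, and Trpv6 just under it, with 66.7 on the control array.

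**Figure D2:**
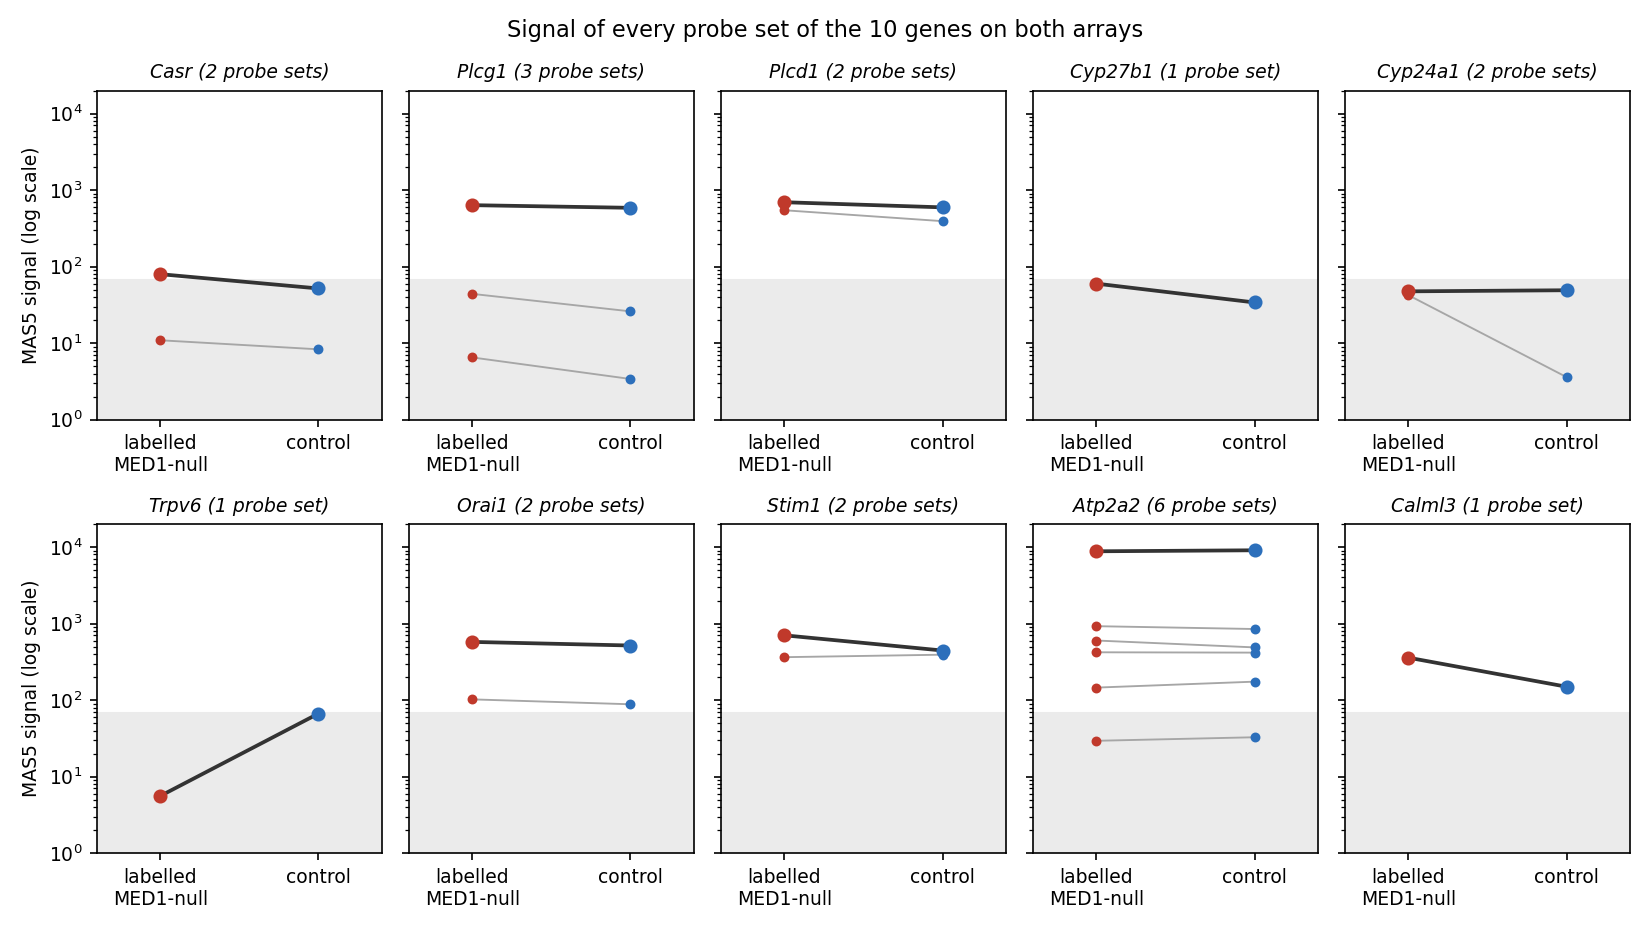
MAS5 signal (log axis) of each of the 22 probe sets on the array labelled MED1-null (left, red) and the control array (right, blue), 1 panel per gene. Each line joins the values of 1 probe set, the heavier line is the probe set used for the gene, and grey shading marks signals under the floor of 67.7. The lines of Calml3 and of 1 Stim1 probe set slope visibly above the shading, those of Atp2a2 are nearly level, and Cyp27b1, Cyp24a1 and Trpv6 lie wholly in the shaded range.

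Casr encodes the calcium-sensing receptor itself, a G protein-coupled receptor of the cell surface. Its brighter probe set read 79.6 on the array labelled MED1-null and 51.8, under the floor, on the control array. The ratio was therefore at least 1.18-fold higher, a bound close to 1. The other Casr probe set read 10.9 and 8.3, under the floor on both arrays. Casr signal was thus near the limit of what these arrays measured in both cultures, and 29.6% of measured genes had a ratio at or above its bound.

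Among the phospholipases, both members were within 2-fold. Plcg1, which in keratinocytes keeps up the calcium response that leads to differentiation, read 635.0 on the array labelled MED1-null and 586.4 on the control array, a log2 ratio of 0.11. Its other 2 probe sets were under the floor on both arrays, at 44.0 and 26.0 and at 6.5 and 3.4. Plcd1, whose loss in mice leaves the skin with little hair, read 693.8 and 594.4 with the probe set used, 1.17-fold higher. The suffix of that probe set marks sequence shared with other transcripts. The second Plcd1 probe set read 544.9 and 392.5, 1.39-fold higher. Its log2 ratio, 0.47, is the value of Plcd1 when probe sets of shared sequence are left out. The 2 Plcd1 probe sets went the same way and lay 0.25 log2 units apart. This can be set beside the spread between probe sets of the same gene on these arrays. Pooled from 4916 genes, that spread was an SD of 0.31 log2 units, which covers probe sets and not cultures. It is the SD of single probe sets about the mean of their gene, and a difference between 2 of them varies more.

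The genes of vitamin D turnover gave no measured signal. Cyp27b1, which makes calcitriol, read 59.9 on the array labelled MED1-null and 34.0 on the control array with its single probe set. Cyp24a1, which degrades calcitriol, read 47.5 and 49.1 with 1 probe set and 42.3 and 3.6 with the other. The 2 Cyp24a1 probe sets target 1 gene and gave as-deposited log2 ratios of -0.05 and 3.55, so no direction can be read for it. Ratios past 2-fold are common where no floor is set. Of all 18193 genes, 12.3% then passed 2-fold with the array labelled MED1-null higher and 10.4% with it lower. How many were as far apart as 3.55 was not counted.

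The 3 members of calcium entry differed among themselves. Orai1, the pore of the store-operated channel, read 576.0 on the array labelled MED1-null and 516.9 on the control array. Its second probe set read 102.2 and 88.2, and the 2 log2 ratios, 0.16 and 0.21, differed by 0.06. Stim1, the sensor of the store, read 702.3 and 444.4 with the probe set used, 1.58-fold higher, and 6.02% of measured genes had a ratio at or above this, while 5.77% were at least as far from 0 on the lower side. Its other probe set, whose suffix marks sequence shared with other transcripts, read 363.8 and 392.1, a log2 ratio of -0.11. The 2 Stim1 probe sets thus pointed in opposite directions and lay 0.77 log2 units apart, beside the pooled SD of 0.31 for single probe sets. Their median log2 ratio was 0.28.

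Trpv6, a calcium-selective channel of the plasma membrane that takes up calcium in gut and other epithelia, was under the floor with as-deposited values far apart. Its single probe set read 5.6 on the array labelled MED1-null and 66.7 on the control array. Both values are under the floor of 67.7, the second by a narrow margin. With the floor lowered to the 25th percentile of the signal, 18.1, Trpv6 had a log2 ratio of -1.88, a bound set by that floor, and it was then the only member at least 2-fold lower, where 5.82% of all genes were. Under quantile normalization and after a lowess curve was taken off, its control signal just reached the floor and the ratios were -0.05 and -0.01. No second probe set of Trpv6 was there to compare.

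By the probe set used, the pump gene Atp2a2 had the log2 ratio nearest 0 of the measured members. With the arrays rescaled to a median ratio of 1 it was -0.11, and that of Plcg1, 0.05, was nearer 0. Atp2a2 encodes SERCA, the calcium ATPase of the endoplasmic reticulum, and in humans its mutation causes Darier disease, in which keratinocytes lose their cohesion. Its brightest probe set read 8798 on the array labelled MED1-null and 9069 on the control array, a log2 ratio of -0.04. A further 4 probe sets, each at the floor on both arrays, gave 924.6 and 848.8, 600.6 and 488.3, 421.5 and 417.3, and 145.7 and 174.2. The sixth read 29.4 and 32.7. Over the 5 probe sets at the floor the log2 ratios ran from -0.26 to 0.30, with 3 above 0 and 2 below. The sign for Atp2a2 was also turned by quantile normalization, to 0.02, and by the median over probe sets, to 0.01.

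**Figure D3:**
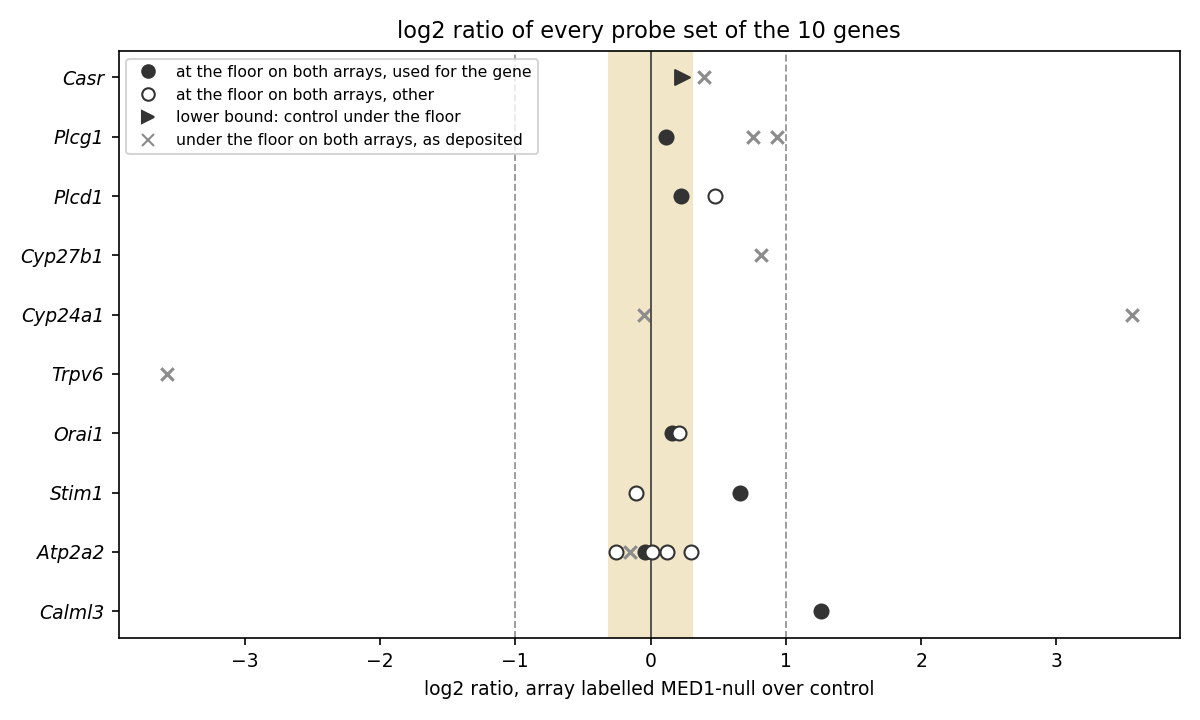
The log2 ratio of the array labelled MED1-null over the control array for each of the 22 probe sets of the 10 genes. Filled circles are the probe sets used, open circles others that reached the floor on both arrays, the arrowhead a lower bound and crosses probe sets under the floor on both arrays, drawn at their as-deposited ratio; dashed lines mark 2-fold and the band the pooled SD of 0.31 between probe sets. Calml3 at 1.26 is the only circle past 2-fold, while crosses run from -3.57 for Trpv6 to 3.55 for Cyp24a1.

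Calml3 encodes a calmodulin-like calcium-binding protein made mainly in epithelia, known in humans as a partner of the motor protein myosin 10. Its single probe set read 358.2 on the array labelled MED1-null and 149.5 on the control array, both above the floor. This is 2.40-fold higher, a log2 ratio of 1.26. Of all 11621 measured genes 80, or 0.688%, had a ratio at or above it, and 148, or 1.27%, were at least as far from 0 on the lower side. Among the 2905 genes in the same band of mean signal, the second lowest of 4 equal ones, 1.82% were higher by 2-fold or more and 2.44% lower by as much. With a single probe set and 1 array per group there is no second measurement of Calml3, and the signal is under the 75th percentile of all signals, 434.6, so that with the floor set there Calml3 was not measured. Its log2 ratio ran from 1.14 to 1.26 over the 7 other settings.

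Calm4 and Myo10, both named after their values were seen, can be set beside Calml3. Calm4, another calmodulin-like gene of epidermis, lies near Calml3 with 1 gene between them in the RefSeq table, and read 25157 on the array labelled MED1-null and 23170 on the control array, a log2 ratio of 0.12. Myo10, the gene of myosin 10, read 1457 and 1181, a log2 ratio of 0.30, and its 4 probe sets ran from 0.22 to 0.77.

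**Figure D4:**
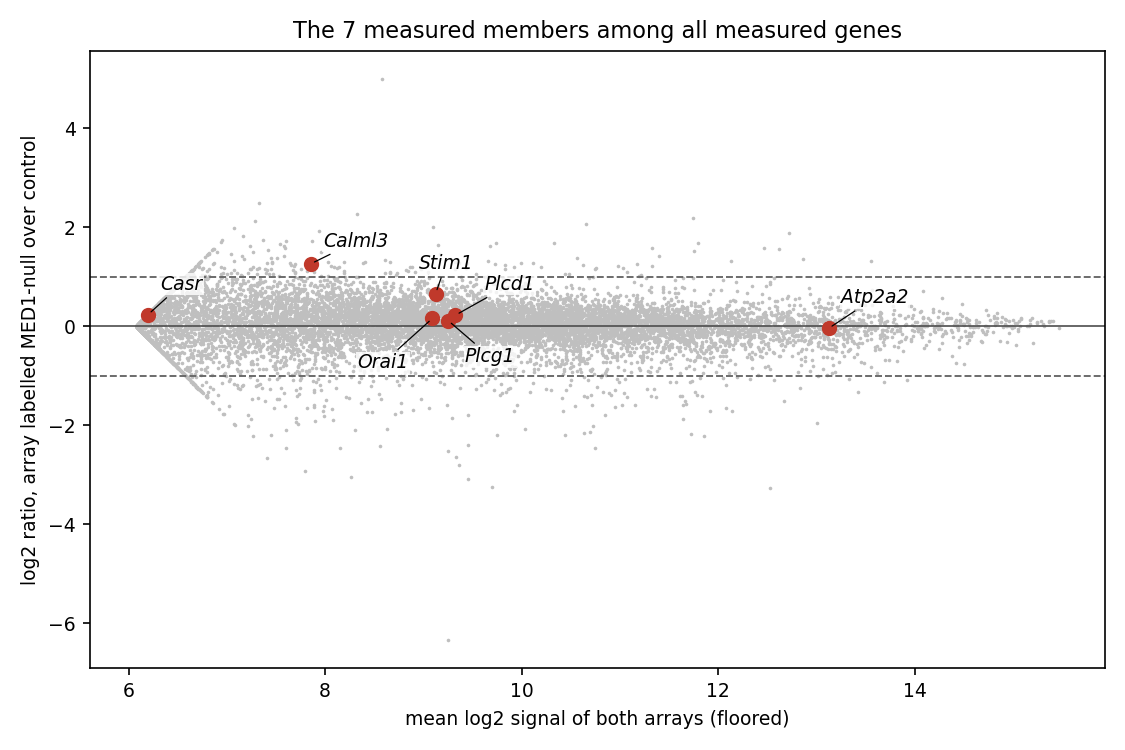
Each grey point is 1 of the 11621 measured genes, with the mean floored log2 signal of both arrays on the x axis and the log2 ratio of the array labelled MED1-null over the control array on the y axis; dashed lines mark 2-fold. The 7 measured members are in red. Calml3, at 1.26, lies above the upper line and the other 6 lie between the lines, with Casr at the low end of the signal and Atp2a2 at the high end.

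Other genes of the same pathways were taken from 10 lists, in the order in which the signal runs. For a gene at the floor on 1 array only the ratio is a bound, and such a gene is counted as within 2-fold only where its as-deposited ratio is so too. Of 15 measured G proteins and receptor partners 14 were within 2-fold, with a median log2 ratio of 0.01. The kinase gene Fyn was lower, at 150.2 on the array labelled MED1-null and 312.2 on the control array, and its 2 probe sets ran from -1.06 to -0.14. Gnaq and Gna11, which couple the calcium receptor to phospholipase C, had log2 ratios of 0.05 and -0.11. Both were chosen with their values in view. The 3 next in size were Arhgef1 at 0.55, Rhoa at -0.40 and the actin crosslinker gene Flna at 0.39. Of 6 other measured phospholipase C genes 5 were within 2-fold. Plcb1 read 60.8 on the array labelled MED1-null, under the floor, and 123.5 on the control array, at least 1.82-fold lower, so its side of 2-fold is not settled. At the floor of 18.1, 2 of 11 were lower by 2-fold or more, where 5.82% of all genes were. The median of the 6, 0.05, was -0.01, -0.01 and -0.03 under the 3 rescalings of the arrays. Plcd3 was 1.64-fold lower, at 1016 against 1667 on the control array. Plch2 went the other way, at 3718.5 on the array labelled MED1-null and 2486.5 on the control array. Its 2 probe sets had log2 ratios of 0.49 and 0.58. Of the 6 genes 4 lay above 0 and 2 below.

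Of 12 measured genes that act on inositol trisphosphate and diacylglycerol, 2 were lower by 2-fold or more and none higher by as much. Over all measured genes, 2.23% were lower and 1.63% higher by as much. The count of lower genes in this list was 1 with the median over probe sets and 0 of 8 at the 75th percentile floor. At the 25th percentile floor 2 of 16 were lower and 1 higher. The 2 lower genes at the main floor were Itpkb and Prkca. Itpkb, an inositol trisphosphate kinase, read 90.2 on the array labelled MED1-null and 201.7 on the control array. Prkca, the gene of protein kinase C alpha, read 243.4 and 526.6. The 3 probe sets of Prkca ran from -1.11 to -0.20, all on the same side of 0. Rasgrp1 came nearest to 2-fold on the other side, at 391.9 and 198.4, but its 4 probe sets went both ways, from -0.80 to 0.98. Prkch, the protein kinase C isoform typical of differentiating epidermis, read 1514 and 2697, 1.78-fold lower, with its 2 probe sets at -0.86 and -0.83. The list's median was -0.12 and 5 of 12 lay above 0. With the floor at the 25th percentile the median was 0.09, and with no floor 0.02. It stayed below 0 under the other settings, from -0.18 at the 75th percentile floor to -0.08 with the median over probe sets.

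Of 12 other measured entry genes 10 were within 2-fold, and the median was -0.05, with 6 above 0 and 6 below. Trpv4, a calcium channel of keratinocytes, read 44.6 on the array labelled MED1-null, which is under the floor, and 146.9 on the control array, at least 2.17-fold lower. Trpc7, another cation channel, read 13.5 and 103.4, at least 1.53-fold lower and on an unsettled side of 2-fold. In the other direction, Cacna1d read 114.8 on the array labelled MED1-null and 59.8 on the control array. The second value is under the floor, so Cacna1d was at least 1.70-fold higher. At the floor of 18.1, 3 of 16 entry genes were lower and 1 higher by 2-fold or more. Of all 16039 genes measured at that floor, 934 were lower and 1120 higher by as much. Among relatives of the members, Stim2 read 822.2 and 699.4, Orai2 686.5 and 647.6, and Orai3 82.7 and 104.9. The choice of these 3 was made with their values known. The 2 probe sets of Orai2 went both ways, with log2 ratios of -0.56 and 0.08. The pumps and exchangers beside Atp2a2 all lay within 2-fold, 12 of 12, with log2 ratios from -0.34 to 0.67. Atp2c1, the Golgi calcium pump whose mutation in humans causes Hailey-Hailey disease, read 907.1 and 990.4, and its relative Atp2c2 232.4 and 146.1. Atp2c1 was likewise named after its values were seen.

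Of 9 measured calcium-binding proteins, Nucb2 was lower at 1612 on the array labelled MED1-null and 4325 on the control array, 2.68-fold. Calr, the calcium-storing chaperone calreticulin, was 1.61-fold lower (10774 and 17355), and its 3 probe sets ran from -1.09 to -0.69. The storage protein gene Casq2 was 1.82-fold higher. Of 18 measured calmodulin effectors 17 were within 2-fold. The exception, the kinase gene Camk2a, read 86.1 on the array labelled MED1-null and 30.4, under the floor, on the control array, at least 1.27-fold higher, which leaves its side of 2-fold unsettled. At the floor of 18.1, 2 of 21 were higher and 1 lower by as much, beside 1120 and 934 of all 16039 genes. At the main floor 12 of the 18 lay above 0, with a median of 0.09. Their extremes were Camk1d at -0.85 and Nfat5 at 0.65.

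On the vitamin D side, none of 9 measured genes of supply and reception was 2-fold apart, and 6 of them lay below 0. Their median log2 ratio, -0.23, was the value of Cyp2r1, named after its values were seen. Cyp2r1 read 53.7 on the array labelled MED1-null and 79.4 on the control array, so its ratio is a bound. This list's median was -0.04 with the median over probe sets, -0.03 at the 75th percentile floor and -0.14 under quantile normalization. It was -0.26 at the 25th percentile floor, and below 0 under every setting. The vitamin D receptor gene Vdr read 1155 on the array labelled MED1-null and 943.9 on the control array, and its 2 probe sets had log2 ratios of 0.19 and 0.29. Its partner genes differed in direction, with Rxrb at 351.9 and 548.0 and Rxra, named after its values were seen, at 454.8 and 431.1. Fdx1, which passes electrons to the vitamin D hydroxylases, read 2415 and 1930. Of 9 measured genes listed as targets of the vitamin D receptor, Klk6, a secreted protease of the epidermis, was 2.88-fold higher, at 5850 and 2034, and 8 were within 2-fold. The target list's median was -0.02, and 0.05 under quantile normalization. It moved more with the floor, to 0.29 at the 25th percentile and with no floor, and to 0.13 at the 75th. Other classical targets, the calcium buffers S100g and Calb1 and the antimicrobial gene Camp, all named after their values were seen, were under the floor on both arrays, as Cyp24a1 and Trpv6 were.

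Genes that calcium switches on in differentiating keratinocytes had the highest median of the 10 lists, 0.43 over 12 measured, with 7 above 0 and 5 below. The desmosomal cadherin gene Dsg1a was 2.24-fold higher, at 227.1 on the array labelled MED1-null and 101.2 on the control array. The envelope precursor gene Ivl read 708.5 and 373.8, 1.90-fold higher, and its 2 probe sets were at 0.92 and 1.05. In the other direction, the crosslinking enzyme gene Tgm1 was 1.74-fold lower, at 4430 and 7698. The keratin Krt1 was under the floor on both arrays, at 56.8 and 28.2. Tgm1 and Krt1 were named after their values were seen. With the floor at the 75th percentile the list's median was -0.07 over 7 genes. The list was chosen with the value of Calml3 known and is no independent evidence for it.

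**Figure D5:**
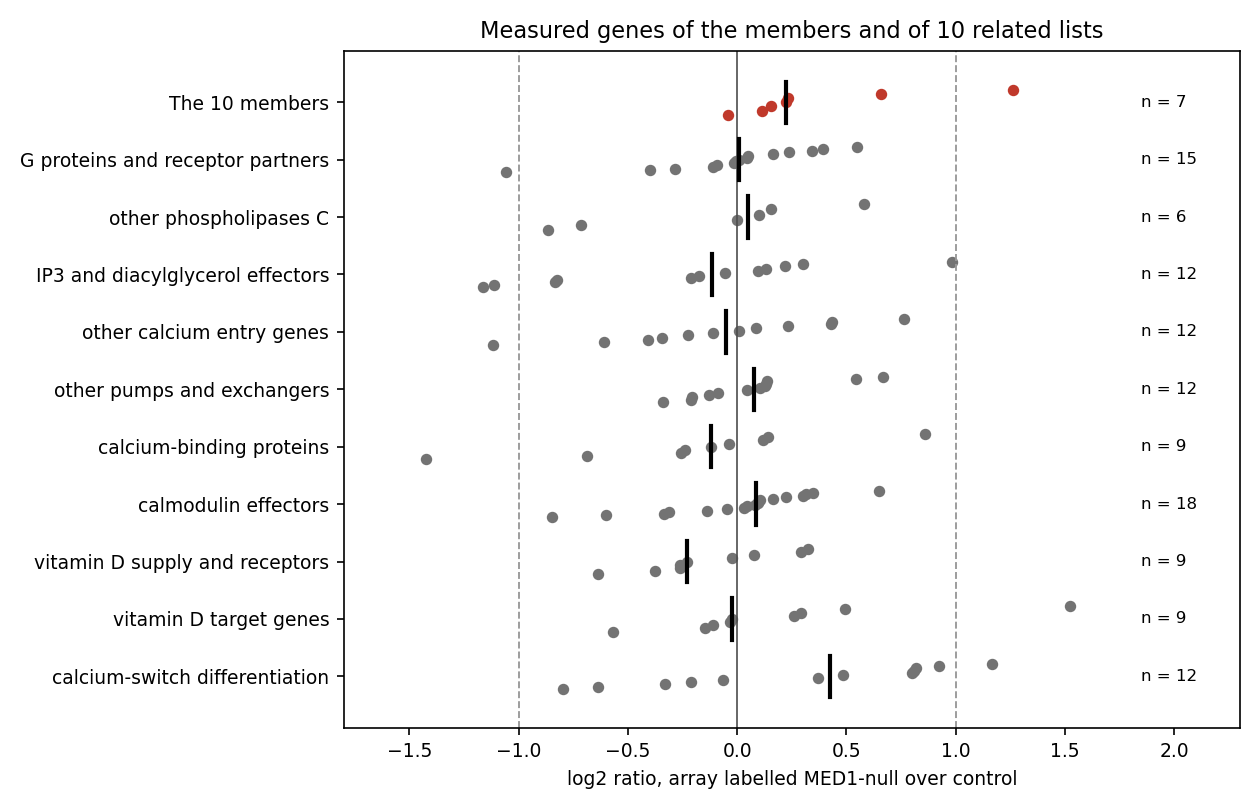
Log2 ratio of the array labelled MED1-null over the control array for each measured gene (points) of the 10 members and of 10 related lists, with the median of each as a black bar, dashed lines at 2-fold and the number of measured genes at the right. The median of the members is 0.22, and those of the lists run from -0.23 for vitamin D supply and receptors to 0.43 for calcium-switch differentiation. The value of -0.23 is the bound of 1 gene, Cyp2r1, and moves with the setting.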

How the data were processed

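Gene expression was measured on 2 Affymetrix arrays, 1 per group, from the groups named in the sample titles. The deposited values are signal intensities, 1 for each probe set, which the authors made with MAS5, per the submitters' processing notes, and Affymetrix's GeneChip software, per the labels' protocols. No version is named in the labels. The values have a trimmed mean of 500.0 on each array. Of 45101 probe sets, 64 were controls, 34945 had 1 gene symbol in GEO's platform annotation, 932 several and 9160 none; the last 2 kinds were left out. By Entrez ID, 34741 were found in the RefSeq table of GRCm38.p6, which changed 0 symbols, and it was used for names, neighbours and start-site sequences.

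Signals were floored at 67.7, and the log2 of the ratio of the array labelled MED1-null over the control array was computed in Python 3.11.15 with pandas 2.3.3. Genes 2-fold or more apart were counted by direction. No test was possible with 1 array per group. The counting code was run on simulated data, with changes beyond 2-fold planted in genes well above the floor. That run does not test calls near 2-fold or near the floor. Named were all members, Med1, and per list every gene past 2-fold and genes from the 4 farthest from 0; others are marked in the text. Alternatives were floors at the 25th and 75th percentile or none, 3 rescalings (median ratio, quantiles, a lowess curve), the median over probe sets, and leaving out probe sets of shared sequence. The members and lists were chosen with earlier results of these data known.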

Additional observations from a re-analysis of the deposited data

How the results depend on the processing

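The median log2 ratio of the measured members, 0.22, lay between 0.11 and 0.23 under all 8 alternatives. The count of members at least 2-fold higher stayed at 1, Calml3, under 7 of them and became 0 at a floor set to the 75th percentile, where Calml3 was not measured. The count at least 2-fold lower, 0, was 1, Trpv6, with the floor at the 25th percentile and with no floor. Over all measured genes, the counts of 190 higher and 259 lower were 1120 and 934 with the floor at the 25th percentile, 49 and 106 at the 75th, and 2229 and 1900 with no floor; a higher floor leaves fewer genes to count. The share of lower genes among those called, 57.7%, was 45.5%, 68.4% and 46.0% under these 3 floors, and 65.5%, 66.5% and 69.1% after the rescalings by median ratio, quantiles and lowess. Single members moved most where floor or probe set changed: Casr was at 0.62 with the lower floor, and Stim1 at 0.28 with the median over its probe sets. Cyp27b1, Cyp24a1 and Trpv6 had no reliable value, since signal over background limits them. No paired analysis was possible because each group has 1 array and no test was made.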
